A study of Mus musculus and Rattus norvegicus with 28 samples.

Results

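The caveolar coat and the membrane repair machinery of muscle were followed through 10 genes, Trim72, Dysf, Cav1, Cav2, Cav3, Cavin1, Cavin2, Cavin3, Cavin4 and Ehd2, in cardiomyocyte preparations of mouse and rat. The genes were matched by symbol in the RNA-seq files, where all 10 were found among 55450 mouse and 32623 rat genes, and all 10 passed the filter on low values in both species (13979 mouse and 13625 rat genes tested). Trim72 was chosen by its ATAC-seq peak and its rise at P1. Its values at E18.5 and P1, and every contrast that uses those libraries, are therefore a description and were given no test, and the other 9 genes accompany it as the genes of the same structures.

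The mouse cells came from left ventricles of wild-type C57BL/6 mice of both sexes at embryonic day 18.5 (E18.5) and at postnatal days 1, 3 and 7 (P1, P3 and P7), with 2 RNA-seq and 2 ATAC-seq libraries per time point. The rat cells were left ventricular cardiomyocytes of Sprague Dawley rats at postnatal day 1, plated and then given DMSO, or 100 nM trichostatin A (TSA), an inhibitor of histone deacetylases, with 3 RNA-seq libraries per group. No transgene, deletion or Cre driver was used, and cells that attached to plain dishes in a first plating were discarded as non-cardiomyocytes. The study calls its replicates biological, but the sources tie no library to an animal, culture or litter, so p-values measure the spread between libraries. Levels are given as FPKM, the fragments per kilobase of transcript scaled to the size of the library, which allows levels of different genes to be compared because it is a value per length.

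Caveolae are small flask-shaped pits of the plasma membrane that flatten under stretch. Caveolins are the integral membrane proteins of the pit, with Cav1 and Cav2 in endothelium, fibroblasts and adipocytes and Cav3 in muscle. Cavins form the outer coat, and Cavin4 is its muscle member. Ehd2 is an ATPase that sits at the neck of the pit. Trim72, also called MG53, is a tripartite motif protein of striated muscle that gathers at membrane wounds, where dysferlin, the product of Dysf, takes part in the calcium-dependent fusion of repair vesicles, and both proteins are known to bind caveolin 3.

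The levels of cell type markers in the mouse preparations differed with age. The summed FPKM of 10 cardiomyocyte markers was 23111 and 30091 at E18.5, then 10922 and 18179 for P1, 7410 and 6691 for P3, and 1842 and 812 by P7, and Tnnt2, the cardiac troponin T gene, stood at 330 FPKM in P7 replicate 2. Over the same time points the sum of 8 fibroblast markers went from between 432 and 442 to between 2907 and 3628, and that of 8 smooth muscle and pericyte markers from between 416 and 543 to between 1660 and 1866. The latter did not rise as a group. By the call rule given below, 4 of the 8 were higher and 2 lower at P7, beside 15.4% and 12.3% of all genes. Acta2 went from 352 and 480 FPKM at E18.5 to 1161 and 1326 at P7, while Cnn1 went from 16.4 and 22.4 to 6.70 and 6.48. The sum of 5 erythroid markers, all hemoglobin genes or Alas2, was 29043 and 35390 at E18.5 and between 4.68 and 41.0 in the 6 postnatal libraries. Endothelial markers (8 genes) summed to between 247 and 489 in every library, macrophage markers (5 genes) to between 21.4 and 40.3, and epicardial markers (4 genes) to between 87.7 and 220. Of the 3 adipocyte markers, Adipoq stayed at or under 0.348 and Cidec at or under 0.102 FPKM in all 8 libraries, while Fabp4, which endothelium also expresses, was at 267 and 179 FPKM at E18.5 and between 18.6 and 94.6 in the later libraries. In such bulk preparations, fewer cells of a type and less RNA per cell cannot be told apart.

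The regions that the results below turn on are the stretches of 250 bases just before the start of the most abundant transcript. They are shown for Trim72, for Cav3 and Cavin4, the muscle caveolin and cavin that fell, and for Cav2, which rose. Ehd2 and Dysf also rose, held no match to the MEF2 or AP1 motif, and are not shown. The bases were read from the mouse genome (GRCm38.p6, the mm10 of the files), whose letters were identical to all 12 RefSeq promoters found for 9 of the 10 genes. Capitals mark a match to the motif of MEF2 or to that of AP1.
Trim72 (chr7:128003699-128003948, plus strand): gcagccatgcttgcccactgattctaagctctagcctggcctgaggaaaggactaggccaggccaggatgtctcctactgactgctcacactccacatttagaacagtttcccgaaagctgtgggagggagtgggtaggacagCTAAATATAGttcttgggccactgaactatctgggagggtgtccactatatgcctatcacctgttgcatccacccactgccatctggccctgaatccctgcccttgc
Cav3 (chr6:112459255-112459504, plus strand): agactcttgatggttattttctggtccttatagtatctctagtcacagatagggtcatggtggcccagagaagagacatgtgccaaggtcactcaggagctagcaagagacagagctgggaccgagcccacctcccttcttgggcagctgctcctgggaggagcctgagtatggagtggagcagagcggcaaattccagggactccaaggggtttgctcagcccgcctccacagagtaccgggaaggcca
Cavin4 (chr4:48663264-48663513, plus strand): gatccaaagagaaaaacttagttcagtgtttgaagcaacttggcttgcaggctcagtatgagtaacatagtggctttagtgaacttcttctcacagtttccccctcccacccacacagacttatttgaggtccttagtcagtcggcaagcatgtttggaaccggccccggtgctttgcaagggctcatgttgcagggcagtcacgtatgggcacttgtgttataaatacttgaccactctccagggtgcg
Cav2 (chr6:17280935-17281184, plus strand): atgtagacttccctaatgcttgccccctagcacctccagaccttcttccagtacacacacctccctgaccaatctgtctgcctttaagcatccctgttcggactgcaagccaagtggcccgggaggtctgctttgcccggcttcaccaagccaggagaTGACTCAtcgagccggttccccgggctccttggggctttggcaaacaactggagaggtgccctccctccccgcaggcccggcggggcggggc

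Both strands were searched for 4 motifs, those of MEF2 and of the CArG box by their usual consensus, AP1 as TGACTCA or TGAGTCA, and the E-box as CANNTG. Among the same stretches of 12468 protein-coding genes tested, 1.85% held the MEF2 motif, 1.2% the CArG box, 3.14% the AP1 motif and 56.8% an E-box. Trim72 held the only MEF2 match of the 10 genes, CTAAATATAG from 107 to 98 bases before the start, and 2 E-boxes, CACCTG and CATCTG, nearer the start. Cav2 held the only AP1 match, TGACTCA from 92 to 86 bases before the start. No match to the CArG box was found, and 6 of the other 9 genes held 1 or 2 E-boxes, with Dysf, Cavin2 and Cavin3 holding no match to any motif in this window. None of the matches overlapped another. A match is a string of letters and says nothing about binding.

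Trim72 lies at chr7:128003949-128011033 on the plus strand, and 96.9% of its FPKM over the 8 libraries came from a transcript with 7 exons that begins at the first of these bases. Its level was 18.8 and 9.82 FPKM at E18.5, then 66.0 and 104 for P1, 53.0 and 45.4 for P3, and 13.6 and 5.17 by P7. The P1 libraries were the highest and did not overlap those of any other time point, while the E18.5 and P7 libraries overlapped. On the log2(FPKM + 1) scale the P1 mean was 2.52 above that of E18.5, the rise the gene was chosen by, and the P3 mean was 1.78 above the same E18.5 libraries. The P7 mean was 3.14 below that of P1.

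Trim72 was chosen by its peak and rise at P1, and the missing peak in the P3 and P7 lists was part of that pattern. The study also shows it as a gene whose promoter opens transiently along with its expression. The test of its P7 RNA against P3 is therefore not independent of the choice. The spread behind this test was estimated over all 8 libraries. Trim72 fell by 2.40 (SE 0.43) on the log2(FPKM + 1) scale, to 19.1% of its P3 level, with an adjusted p of 0.0207 by limma with Benjamini-Hochberg adjustment. The call required both a change above 1 in size on that scale and an adjusted p below 0.05, and 3.55% of all genes tested were called between P7 and P3. Fitted on the 4 libraries of P3 and P7 alone, the change had an adjusted p of 0.0467 by limma. The call was lost without either P3 library, without P7 replicate 2 and without the expression filter, with adjusted p between 0.0881 and 0.135 over these 4 settings. The decline stood beside the fall of the cardiomyocyte markers, of which 10 of 10 were called lower at P7 than at P3.

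**Figure D1:**
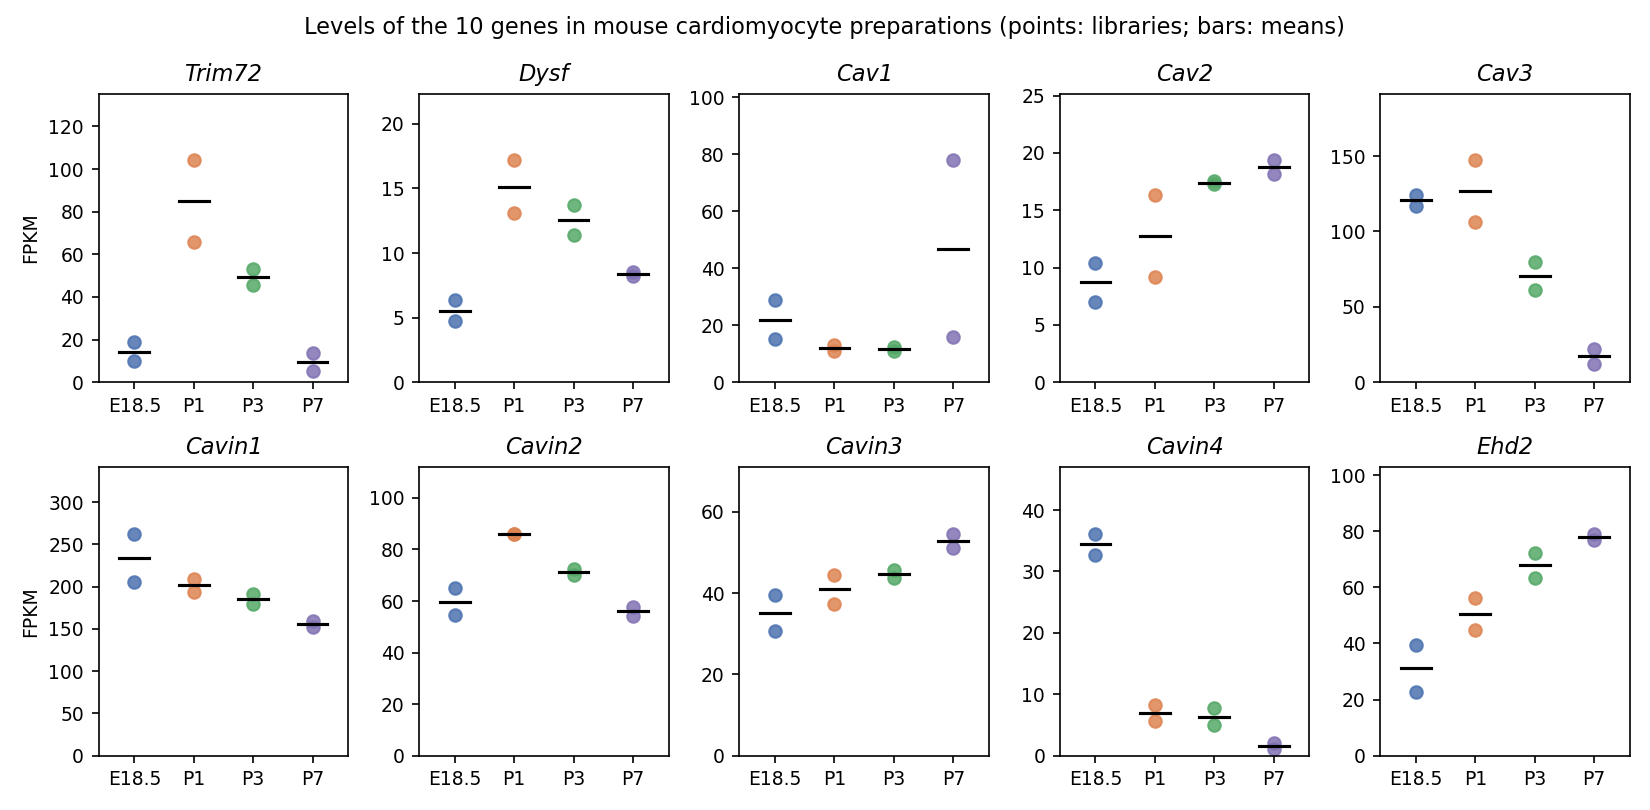
FPKM (y axis, linear from 0, a separate scale for each gene) of the 10 genes at 4 time points (x axis) in mouse cardiomyocyte preparations, with a point for each of 2 libraries and a bar for their mean. Trim72 peaked at P1 (66.0 and 104 FPKM), Cav3 and Cavin4 were lowest at P7, and Cav2 and Ehd2 were lowest at E18.5, while Cav1 was far higher in a single P7 library (77.9 FPKM).

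All 7 exons of Trim72 moved together. Per aligned gigabase, the mean P1 read depth was between 6.40 and 7.87 times that at E18.5 over the exons, the P3 depth was between 3.54 and 4.17 times, and the P7 depth between 0.622 and 0.824 times. A gene on the opposite strand, Gm15533, shares 1242 bp with Trim72 and was listed at 1.12 and 0.740 FPKM at E18.5, then 4.08 and 5.33 for P1, 2.26 and 2.01 for P3, and 0.615 and 0.226 by P7. No source states a strand-specific library, so reads of this pair cannot be assigned where they overlap, although exons 3 to 7 of Trim72 begin past the last base of Gm15533.

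Set against the cardiomyocyte markers, the course of Trim72 had another shape. Per 1000 FPKM of those 10 markers, Trim72 stood at 0.811 and 0.326 FPKM at E18.5, then 6.04 and 5.73 for P1, 7.15 and 6.79 for P3, and 7.39 and 6.37 by P7. The 6 postnatal libraries thus lay between 5.73 and 7.39, and the E18.5 libraries lay below all of them. Dysf, Cav3 and Cavin4 differed from it on this scale. Dysf lay between 0.156 and 0.274 at E18.5 and between 4.64 and 10.1 at P7. Cav3 lay between 3.89 and 5.36 at E18.5, between 8.10 and 9.74 at P1, between 9.12 and 10.7 at P3 and between 12.0 and 15.1 at P7. Cavin4 was lowest at P1, at 0.521 and 0.452, against 1.41 and 1.20 at E18.5 and 1.09 and 1.36 at P7.

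**Figure D2:**
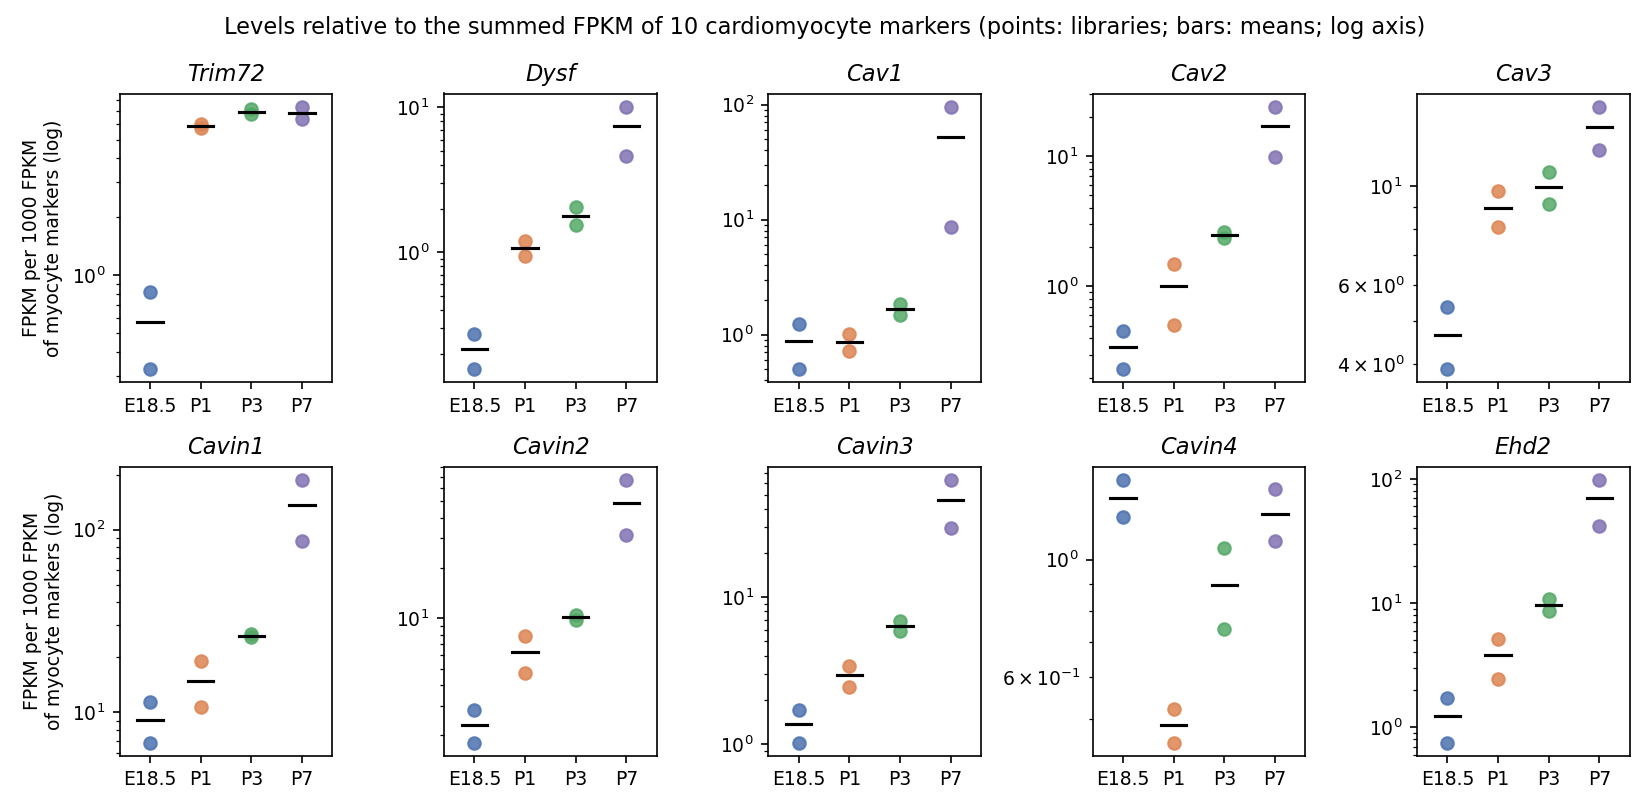
FPKM of each gene per 1000 FPKM of 10 summed cardiomyocyte markers (y axis, log scale, a separate range for each gene) at the 4 time points (x axis), with a point for each mouse library and a bar for the mean of 2. Trim72 was level from P1 to P7 (5.73 to 7.39), Cavin4 dipped at P1, and the ratios of all the other genes, Cav3 and Dysf among them, were highest at P7.

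The same ratio for Cavin1, which many cell types express, went from between 6.84 and 11.4 at E18.5 to between 86.6 and 187 at P7. The part of cell makeup in any of the changes was not tested.

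The dysferlin gene, Dysf (chr6:84008590-84211060, plus strand), was at 6.34 and 4.71 FPKM at E18.5, then 13.1 and 17.2 for P1, 11.4 and 13.7 for P3, and 8.55 and 8.21 by P7. The E18.5 libraries were the lowest, and none of the later groups overlapped them. Dysf rose by 1.31 (SE 0.19) at P1 and by 1.06 (SE 0.19) at P3 against E18.5 on the log2(FPKM + 1) scale, with adjusted p of 0.00142 and 0.0027 by limma. The P3 call was lost with median-of-ratios size factors (0.87), without E18.5 replicate 2 (0.88) and without P3 replicate 2 (0.93), each time by size. At P7 it was 0.54 above E18.5 (adjusted p = 0.0437), short of the size needed for a call, and it was 0.77 below P1 (adjusted p = 0.0274).

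Dysf has 16 transcripts in the files, and the most abundant carried 33.2% of its FPKM. In the estimates of StringTie, the 6 transcripts that begin between bases 84008590 and 84008915 held 1.53% and 24.8% of the gene's FPKM at E18.5, then 40.8% and 41.8% for P1, 41.7% and 36.2% for P3, and 43.3% and 31.7% by P7. Those that begin near base 84019389 held 88.3% and 60.4% at E18.5 and between 51.4% and 63.9% later. The upstream starts thus had a smaller share in both E18.5 libraries than in any later library, with the limit that such shares divide reads of exons that the transcripts have in common. A peak within 250 bp of the upstream starts was present in 6 of 8 lists and within 250 bp of the downstream starts in 5 of 8, and neither P1 list held the downstream peak.

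Cav3 (chr6:112459505-112472872, plus strand), the muscle caveolin, had a single transcript in the files. Its level was 124 and 117 FPKM at E18.5, then 106 and 147 for P1, 79.6 and 61.0 for P3, and 22.2 and 12.2 by P7. The E18.5 and P1 libraries overlapped, and those of P3 and then P7 lay lower without overlap. At P7 Cav3 fell by 2.80 (SE 0.27) against E18.5, to 14.3% of its level (adjusted p = 9.01e-05), by 2.85 against P1 (adjusted p = 0.000864) and by 2.01 against P3 (adjusted p = 0.0109, all by limma). Without the P3 libraries in turn, or without the expression filter, the P3 contrast had adjusted p between 0.0595 and 0.0948.

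Cavin4 (chr4:48663514-48673502, plus strand), the muscle cavin, fell earlier. It was at 32.6 and 36.2 FPKM at E18.5, then 5.69 and 8.21 for P1, 7.77 and 4.94 for P3, and 1.999 and 1.10 by P7. Its P1 and P3 libraries overlapped, and both groups lay below E18.5 and above P7. Against E18.5 it fell by 2.17 (SE 0.26) at P1, by 2.29 at P3 and by 3.82 at P7 on the log2(FPKM + 1) scale, with adjusted p of 0.000603, 0.000319 and 2.34e-05 by limma. It fell by 1.65 at P7 against P1 (adjusted p = 0.00417) and by 1.52 against P3 (adjusted p = 0.0181). The last call was lost when either P3 library, P7 replicate 2 or the expression filter was left out, or when only the 4 libraries of the pair were fitted.

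At P1, when Cavin4 was at 20.2% of its E18.5 level, 2 of 10 cardiomyocyte markers were called lower, beside 6.06% of all genes. Of these markers 9 of 10 had a lower mean, and their median change was -0.76, against 0.15 over all genes. Cav3 stood at 127 ± 29.0 FPKM (SD, n = 2) at P1 against 121 ± 4.81 at E18.5. The part of the cardiomyocyte signal in the fall of Cavin4 was not tested.

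Ehd2 (chr7:15946958-15967567, minus strand), the ATPase of the caveolar neck, was at 39.5 and 22.7 FPKM at E18.5, then 56.2 and 44.6 for P1, 63.5 and 72.4 for P3, and 76.9 and 79.1 by P7. No later group overlapped E18.5. It rose by 1.15 (SE 0.24) at P3 and by 1.35 (SE 0.24) at P7 on the log2(FPKM + 1) scale (adjusted p = 0.00497 and 0.00182 by limma), and its change at P1 was 0.72 (adjusted p = 0.0416). Without E18.5 replicate 2 the changes at P3 and P7 were 0.76 and 0.96, under the size needed for a call, as was the P3 change with median-of-ratios size factors (0.94). Without E18.5 replicate 1 the change at P1 was 1.11 and was called.

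Cav2 (chr6:17281185-17289115, plus strand), the caveolin that pairs with Cav1, was at 10.4 and 6.99 FPKM at E18.5, then 16.3 and 9.13 for P1, 17.3 and 17.5 for P3, and 18.1 and 19.4 by P7. The P1 libraries overlapped those of E18.5, and the P3 and P7 libraries did not. It rose by 1.05 (SE 0.26) at P7 on the log2(FPKM + 1) scale (adjusted p = 0.0101 by limma), and its change at P3 was 0.94 (adjusted p = 0.0182), just under the size needed. The P7 call was lost without E18.5 replicate 2 (0.79, adjusted p = 0.0674) and with median-of-ratios size factors (0.88).

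Of the remaining cavins, Cavin1 (chr11:100956733-100970887, minus strand), without which caveolae do not form, had the highest level of the 10 genes at every time point, at 263 and 206 FPKM at E18.5 and 160 and 152 at P7. Its change at P7 was -0.58 on the log2(FPKM + 1) scale (adjusted p = 0.00841 by limma), too small for a call. Cavin2 (chr1:51289126-51302960, plus strand), a cavin that shapes the membrane, was at 65.2 and 54.4 FPKM at E18.5, then 86.1 and 85.9 for P1, 72.6 and 70.1 for P3, and 57.8 and 54.4 by P7. Its P1 libraries were the highest, as for Trim72, with a P1 change of 0.52 (adjusted p = 0.0112). Cavin3 (chr7:105480083-105482300, minus strand) was at 39.5 and 30.7 FPKM at E18.5 and 54.6 and 51.0 at P7, a change of 0.59 (adjusted p = 0.0124). None of these 3 genes was called in any comparison of time points.

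Cav1 (chr6:17306335-17341452, plus strand), the founding caveolin, gave a value at P7 that rests on a single library and a single exon. It was at 28.7 and 15.1 FPKM at E18.5, then 11.01 and 13.0 for P1, 11.05 and 12.3 for P3, and 15.8 and 77.9 by P7. The P7 difference from E18.5 was 0.74 (SE 0.61, adjusted p = 0.335 by limma), and it was -0.38 without P7 replicate 2 and 1.85 without P7 replicate 1. In P7 replicate 2 the most abundant transcript had a read depth of 115 over its first exon and 440 over its last (chr6:17339113-17341452), against 116 and 33.0 in P7 replicate 1. The last exon had a depth between 7.13 and 16.5 in the 6 other libraries. The excess of P7 replicate 2 was thus in the last exon and not in the first, where its depth per aligned gigabase was 21.4, within the range of the other libraries of 10.4 to 26.0.

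**Figure D3:**
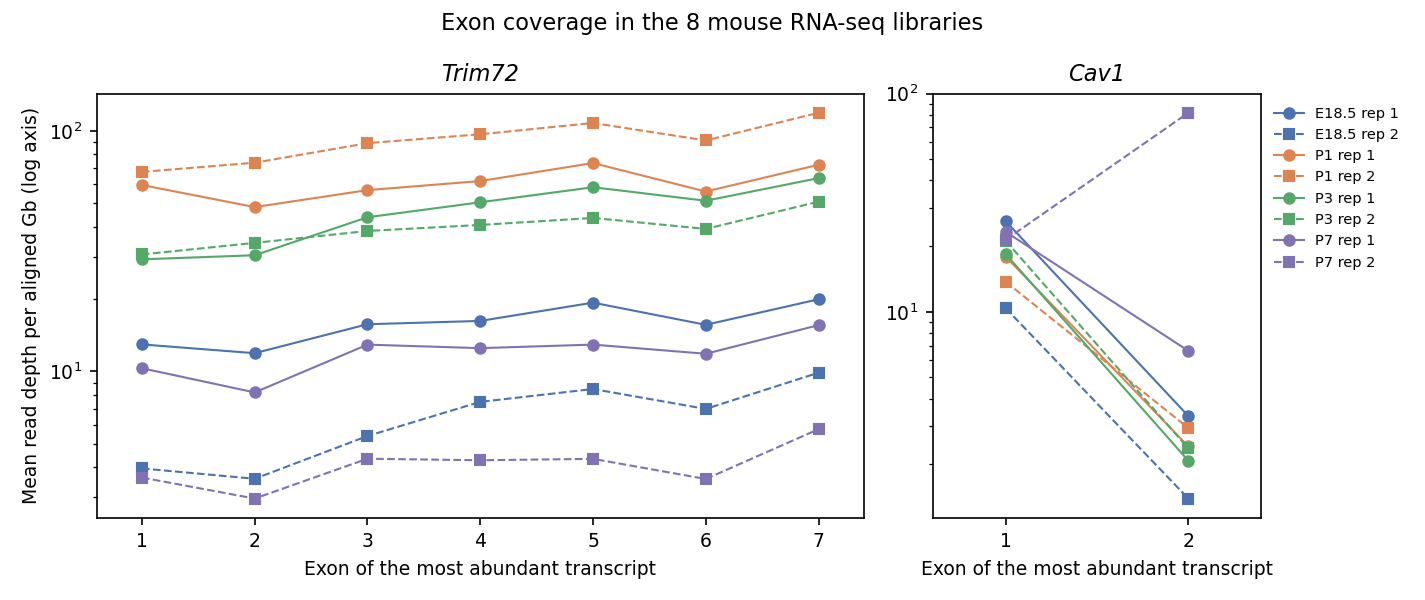
Mean read depth per aligned gigabase (y axis, log scale, a separate range for each gene) over the exons (x axis) of the most abundant transcript of Trim72 (7 exons) and Cav1 (2 exons), with a line for each of 8 mouse libraries. Over all 7 exons of Trim72 the P1 and P3 lines lie above those of E18.5 and P7, which overlap, while P7 replicate 2 of Cav1 leaves the others only at its last exon (81.7 against 1.39 to 6.62).

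By count, 2 of the 9 genes other than Trim72 were called at P1 against E18.5, Dysf higher and Cavin4 lower, where 16.2% of all genes were called (10.1% higher and 6.06% lower). At P3 against E18.5 there were 3 of 9, Dysf and Ehd2 higher and Cavin4 lower, beside 21.9% of all genes (13.0% higher and 8.88% lower). At P7 against E18.5 there were 4 of 9, Cav2 and Ehd2 higher and Cav3 and Cavin4 lower, beside 27.7% of all genes (15.4% higher and 12.3% lower). The median change of the 9 genes was 0.22, 0.26 and 0.54 at the 3 time points, against a median of 0.15, 0.16 and 0.14 over all genes. The counts of the 9 genes are to be read against these shares and show nothing particular to them. The share of all calls that were higher depends on scaling, from 62.5% of calls at P1 as given to 45.7% with median-of-ratios size factors and 77.3% with TPM.

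Between postnatal time points, 2 of 9 genes were called at P7 against P1 (Cav3 and Cavin4, both lower), where 8.91% of all genes were called. At P7 against P3, Cav3 and Cavin4 were again the 2 of 9 called, both lower, where 3.55% of all genes were called. With Trim72 included the count was 3 of 10, but its test is not independent of its choice. At P3 against P1 limma called 0 of 9, as did limma-voom, with 1 gene at an unadjusted p under 0.05, and 0.0143% of all genes were called. These comparisons and those against E18.5 use libraries in common.

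The order of the levels changed with age. At E18.5 it ran, by mean FPKM, Cavin1 (234), Cav3 (121), Cavin2 (59.8), Cavin3 (35.1), Cavin4 (34.4), Ehd2 (31.1), Cav1 (21.9), Trim72 (14.3), Cav2 (8.71) and Dysf (5.52). Cavin3, Cavin4 and Ehd2 overlapped one another there, as did Ehd2 with Cav1, Cav1 with Trim72, and Trim72 with Cav2. At P7 it ran Cavin1 (156), Ehd2 (78.0), Cavin2 (56.1), Cavin3 (52.8), Cav1 (46.9), Cav2 (18.8), Cav3 (17.2), Trim72 (9.39), Dysf (8.38) and Cavin4 (1.55), with overlap between Cavin2 and Cavin3, Cav2 and Cav3, Cav3 and Trim72, and Trim72 and Dysf. The 2 Cav1 libraries lay so far apart at P7 that their range overlapped those of Ehd2, Cavin2, Cavin3, Cav2 and Cav3. Cav3 went from the second place to the seventh and Ehd2 from the sixth to the second.

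The genes whose log2(FPKM + 1) followed Trim72 most closely over the 8 mouse libraries were named by rank among 6950 tested genes with a range of at least 1. They were Cd59a (Pearson r 0.987), Gpr146 (0.986), Parm1 (0.985), the opposite-strand Gm15533 (0.972) and E330011O21Rik (0.971). Cd59a, a complement regulator, was at 16.2 and 19.3 FPKM at P1 against 9.13 and 8.81 at E18.5, and Parm1 at 33.5 and 48.5 against 15.1 and 11.8. Among the caveolar and repair genes, Cavin2 had the highest r with Trim72 (0.958) and Dysf the next (0.825), while Cav3 had 0.645.

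Cav3 was followed by Gja3, a gap junction gene (0.998), Txlnb (0.997), Myadml2 (0.994), the desmosomal gene Pkp2 (0.994) and Pak6 (0.994), all lowest in P7 replicate 2. The closest to Cav1 were Gm28036 (0.936), Ets1 (0.924), Olfr56 (0.902), Birc2 (0.893) and Crk (0.887), all highest in that same P7 replicate 2. Libraries of a time point come from like preparations, so these correlations are a description of 8 libraries.

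In the ATAC-seq peak lists, a promoter peak was a peak within 2.5 kb of any transcript start. Trim72 had such a peak in both P1 lists and in none of the other 6, the pattern it was chosen by, which 20 genes or 0.143% of those tested had. The P1 replicate 1 peak spanned chr7:128003771-128003977, from 178 bases before the start to 28 after it, with 6.69-fold enrichment and its summit 99 bases before the start. The P1 replicate 2 peak spanned chr7:128003770-128003902 with 3.61-fold enrichment. Both contain the stretch with the MEF2 letters printed above. By score the first was number 6666 of 29281 peaks and the second number 17545 of 19753.

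Elsewhere the nearest peak to the Trim72 start lay 36099 and 36129 bp away in the E18.5 lists, 4112 and 4198 bp in those of P3, and 4101 and 21036 bp in those of P7. With the 13149 top peaks of each list the Trim72 peak remained in P1 replicate 1 and not in P1 replicate 2, and with a limit of 5 kb peaks near Trim72 were also counted in both P3 lists and in P7 replicate 1. The peak names of E18.5 replicate 2 and of both P1 lists begin with the same code, whose meaning is not stated. The presence of the peak in those P1 lists and its absence in that E18.5 list belong to the pattern the gene was chosen by.

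Cav2 and Ehd2 had promoter peaks in both lists of E18.5, P3 and P7 and in neither of P1, as did 509 genes or 3.64% of those tested. Cav2 was the gene with the AP1 letters, and its peaks had between 5.18-fold and 8.75-fold enrichment at the start. The Ehd2 peaks had between 4.06-fold and 6.61-fold. The RNA of both genes at P1 was between its E18.5 and P3 levels. The P1 lists held narrower peaks than the rest, with a mean width of 214 and 230 bp against 354 to 457 bp, and the part of this in the P1 pattern was not tested.

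Dysf, Cavin1 and Cavin2 had a promoter peak in all 8 lists, which 36.6% of genes had. Cavin2 reached 10.1-fold enrichment in P3 replicate 2 and Cavin1 8.17-fold in P1 replicate 1. Cav3 had peaks in 7 lists, all at its start, with none in E18.5 replicate 1 and 5.78-fold in E18.5 replicate 2. Its enrichment was 7.83-fold and 4.67-fold at P1, 7.79-fold and 7.62-fold at P3, and 4.10-fold and 4.88-fold at P7. The RNA of Cav3 was lowest at P7. Cavin4 had peaks in 6 lists, with 3.58-fold in E18.5 replicate 1 and none in E18.5 replicate 2. It had 4.18-fold in P1 replicate 1, none in P1 replicate 2, and 4.32-fold and 3.37-fold at P7. At P3 it had 9.03-fold in replicate 1, the longest of the lists, and 4.25-fold in replicate 2. Its RNA was highest at E18.5, but no label ties an ATAC-seq library to the RNA-seq library of the same number. Cav1 and Cavin3 had peaks in 7 lists and lacked one in P1 replicate 2.

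Cav1 showed peaks mainly at 2 places, around 1.5 kb before the start of its most abundant transcript, where other transcripts begin, and at that start itself. Only the upstream place was marked in E18.5 replicate 1 and P1 replicate 1, only the downstream one in E18.5 replicate 2, and both in all P3 and P7 lists. P3 replicate 1 held another peak with its summit 1847 bases after that start.

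**Figure D4:**
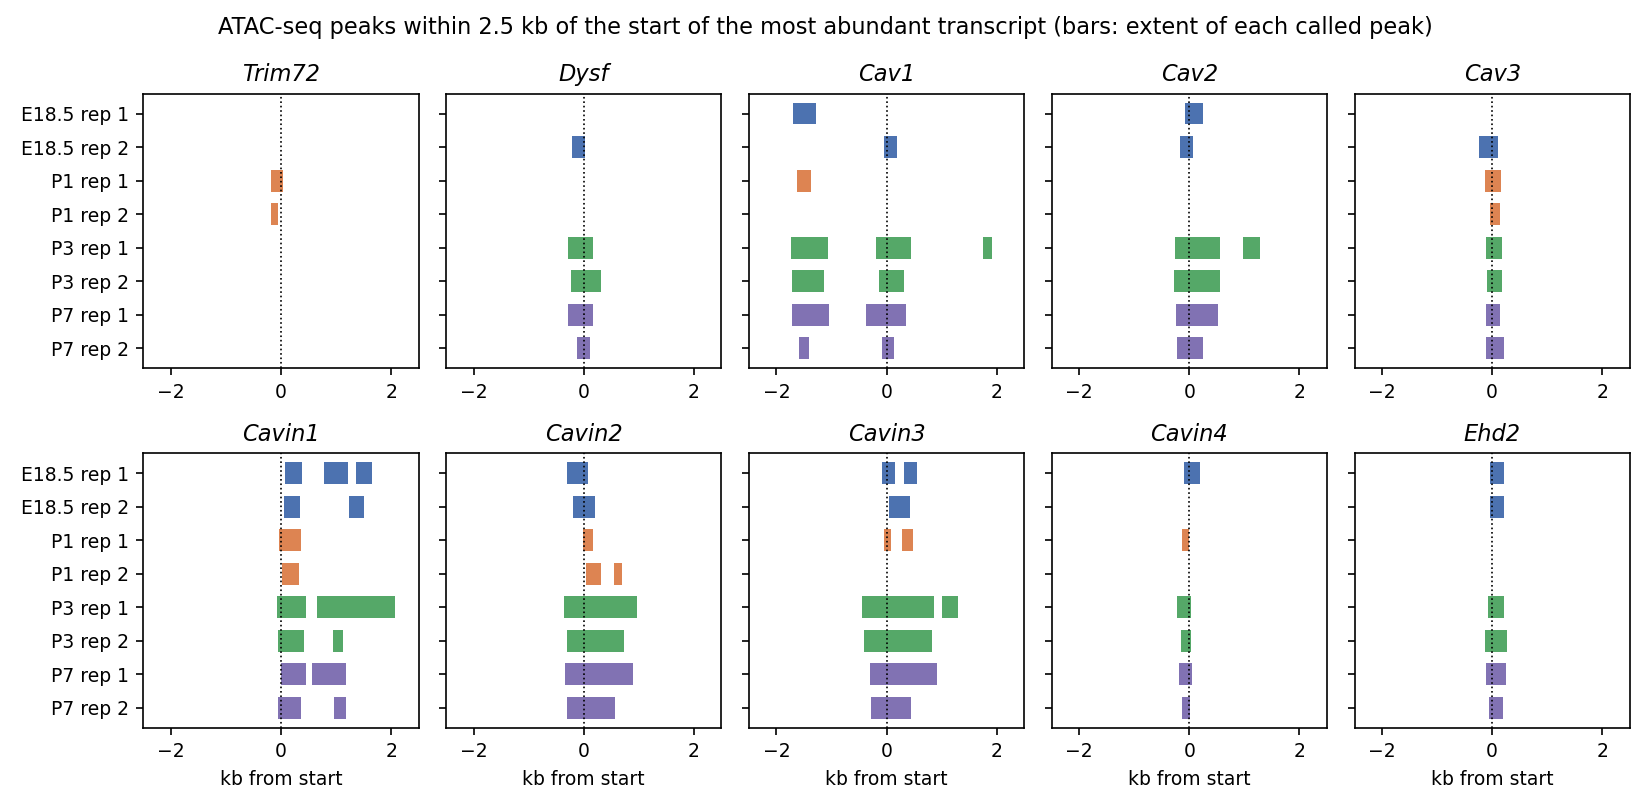
Extent of each called ATAC-seq peak (bars) within 2.5 kb of the start of the most abundant transcript (dotted line, x axis in kb, negative values upstream in the direction of transcription) for the 10 genes in 8 peak lists (y axis, coloured by time point). Trim72 has bars at P1 and nowhere else, Cav2 and Ehd2 have none at P1, and the Dysf peaks at its upstream starts fall outside this window.

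The number of the 10 genes with a promoter peak was 8 in both E18.5 lists, beside 67.1% and 62.4% of all genes tested. It was 8 and 5 at P1, beside 69.2% and 43.0%. It was 9 in both P3 lists, beside 91.7% and 87.7%, and 9 in both P7 lists, beside 86.5% and 85.5%. The lists held between 13149 and 95257 peaks, and both the count and the share of all genes were lowest in P1 replicate 2, with 19753 peaks.

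Of 20 tested members of a list of 23 repair genes, 5 were called higher at P1 against E18.5, 7 at P3 and 7 at P7, beside 10.1%, 13.0% and 15.4% of all genes. By limma 0 were called lower, and the median change at P7 was 0.64 against 0.14 over all genes. Myof, a relative of dysferlin, was at 37.1 ± 0.0738 FPKM at P7 (SD, n = 2) against 1.87 ± 0.461 at E18.5 (a change of 3.74, adjusted p = 1.01e-05). Anxa1, an annexin that binds wounded membrane, changed by 3.70, S100a11, its partner, by 2.44, and Anxa4 by 1.97, with adjusted p of 1.48e-05, 2.34e-05 and 0.000159 by limma. All of these are also expressed in fibroblasts, whose 8 markers were all called higher at P7. The part of fibroblasts in these changes was not tested.

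Of 11 tested members of a list of 12 EHD, pacsin and partner genes, 6 were called lower at P7 and 0 higher, beside 12.3% and 15.4% of all genes, with a median change of -1.44. The Popeye genes, whose products bind cyclic AMP in cardiac membranes, led the list, with changes of -4.05 for Bves, -3.21 for Popdc3 and -3.16 for Popdc2 (adjusted p = 1.35e-05, 4.44e-05 and 0.000201 by limma). Cd36, a fatty acid transporter found in caveolae, changed by -1.93 (adjusted p = 5.01e-05).

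Of 15 genes of the dystrophin-glycoprotein complex, which links the cytoskeleton to the matrix, 6 were called lower at P7 and 1 higher, beside the same 12.3% and 15.4%. The latter was Sgce, the sarcoglycan of wider expression (1.05, adjusted p = 0.000256 by limma), which was named after its value was seen. Sgca, a sarcoglycan of muscle, changed by -2.58, the syntrophin Sntb1 by -2.31 and sarcospan, Sspn, by -2.22 (adjusted p = 0.000768, 0.000216 and 0.000118 by limma).

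Of 8 T-tubule genes, 5 were called lower and 1 higher at P7, again beside 12.3% and 15.4% of all genes. Tcap changed by -3.95, Ryr2 by -3.44, Atp2a2 by -2.49 and Cacna1c by -2.39 (adjusted p = 0.000228, 6.01e-05, 0.000353 and 0.000139 by limma), and Ryr2 is also among the cardiomyocyte markers. The gene called higher was Bin1, a membrane-bending amphiphysin, at 63.6 ± 7.46 FPKM (SD, n = 2) against 13.9 ± 6.61. It was named after its value was seen. The cardiomyocyte markers, of which 10 of 10 were called lower at P7 with a median change of -4.26, moved in the direction of these 3 lists, and their part in them was not tested.

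In the rat cells 0 of the 10 genes were called with TSA against DMSO, by limma or by limma-voom, while 2.13% of all genes were called, and 2 of the 10 had an unadjusted p under 0.05. Trim72 was at 47.0, 57.3 and 77.3 FPKM with DMSO and at 17.9, 18.2 and 65.6 with TSA. TSA replicates 1 and 2 lay below every DMSO library, and TSA replicate 3 lay among them. Trim72 was lower with TSA in 3 of 3 pairs of the same replicate number. The difference was -1.06 (SE 0.49) on the log2(FPKM + 1) scale with an adjusted p of 0.299 by limma, and 0.102 with the replicate number as a block (the pairing of the libraries), and an exact two-sided permutation test gave p = 0.3. Without TSA replicate 3 it was -1.67 with an adjusted p of 0.0382 and was called, so a single library decided the call.

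That library also stood apart in the cardiomyocyte markers, which summed to 22459 FPKM in TSA replicate 3 and to between 10974 and 14946 in the other 5 rat libraries. Smooth muscle markers summed to 2374 and 1607 in DMSO and TSA replicate 3 and to between 631 and 957 elsewhere. Per 1000 FPKM of cardiomyocyte markers, Trim72 was between 3.99 and 5.17 with DMSO and between 1.47 and 2.92 with TSA. The groups did not overlap on that scale, which was not tested. The scale itself differed between the groups, as 8 of 10 cardiomyocyte markers had a higher mean with TSA. No share of all rat genes without overlap on that scale is available here, so the separation shows nothing particular to Trim72.

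Cav2 was at 2.82, 2.92 and 5.27 FPKM with DMSO and at 5.74, 5.78 and 7.46 with TSA, higher in 3 of 3 pairs and with no overlap. Its difference was 0.68 (SE 0.22) with an adjusted p of 0.155. Cav3 was at 153, 159 and 113 FPKM with DMSO and at 179, 174 and 185 with TSA, also higher in 3 of 3 pairs, with a difference of 0.36 (adjusted p = 0.229). Cavin3 and Dysf were lower in 3 of 3 pairs without overlap, with differences of -0.29 and -0.17 (adjusted p = 0.268 and 0.417, all by limma). For each of these 4 genes the exact permutation test, which ignores the pairs, gave p = 0.1, the smallest that 3 against 3 libraries allow. No share of all rat genes without overlap, or with the same direction in 3 of 3 pairs, is available here. The separation of these genes is therefore a description and shows nothing particular to them.

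The remaining 5 genes overlapped between DMSO and TSA. Their differences were 0.38 for Cav1, 0.26 for Cavin2, 0.04 for Ehd2, -0.12 for Cavin4 and -0.29 for Cavin1, with adjusted p between 0.268 and 0.935 by limma. Cavin4 was at 2.88, 1.97 and 8.93 FPKM with DMSO and at 2.79, 2.86 and 5.03 with TSA, and thus under 10 FPKM in every rat library.

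**Figure D5:**
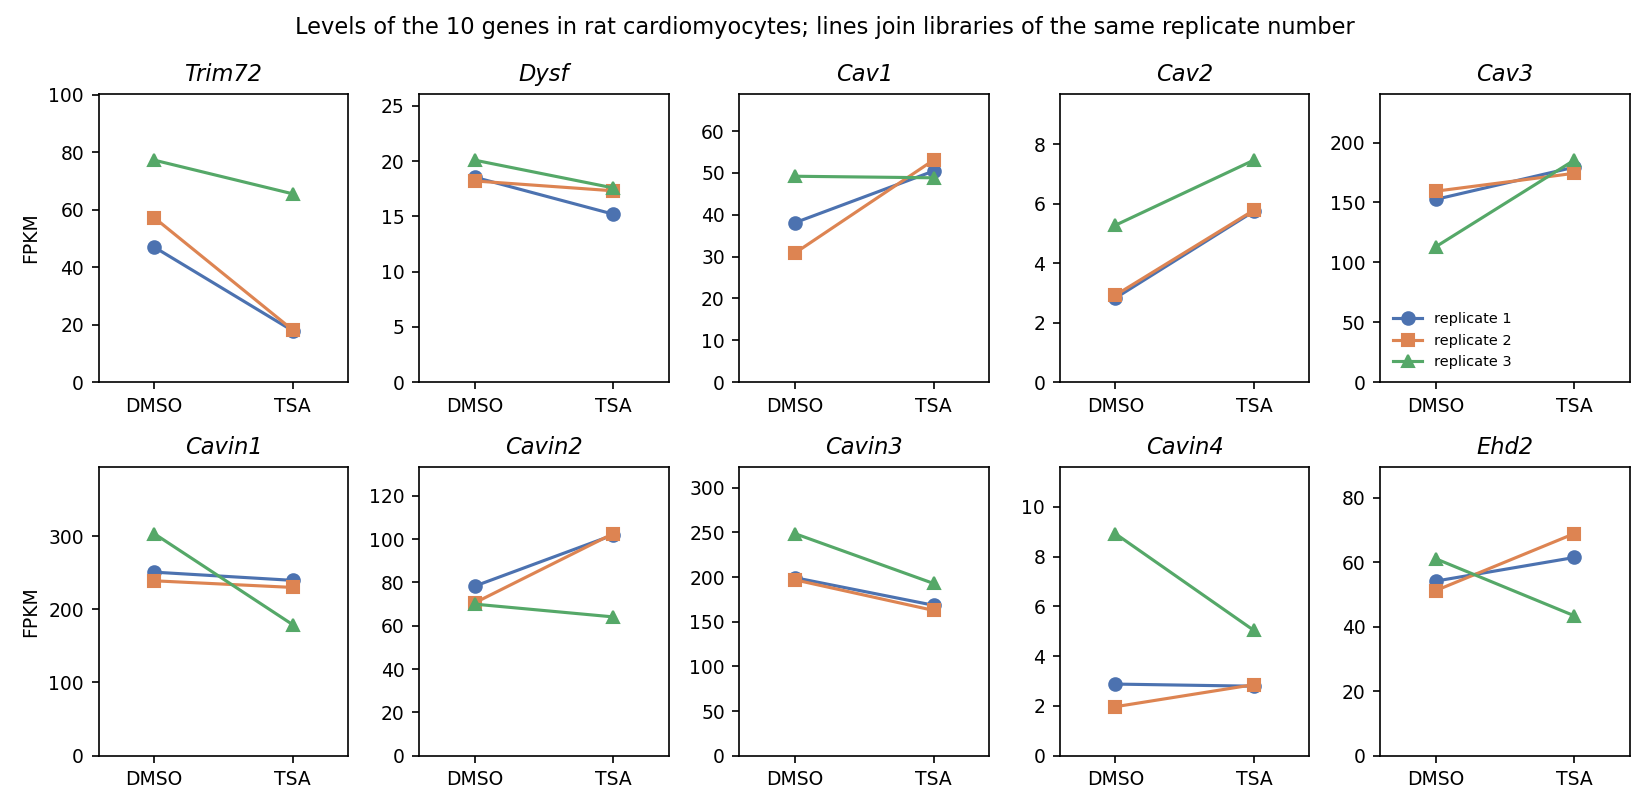
FPKM (y axis, linear from 0, a separate scale for each gene) of the 10 genes in rat cardiomyocytes with DMSO or TSA (x axis), with lines that join the libraries of the same replicate number. Trim72 was lower with TSA in all 3 pairs, least so in replicate 3 (77.3 and 65.6 FPKM), and Cav2 and Cav3 were higher with TSA in all 3 pairs.

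Of the related lists in rat, 1 of 19 repair genes tested was called higher with TSA, Syt7, a calcium sensor of lysosome fusion, at 8.76 ± 1.16 FPKM (SD, n = 3) against 1.72 ± 0.874 (a difference of 1.89, adjusted p = 0.0177 by limma). Myof differed by -0.68 (adjusted p = 0.0686). Of 10 caveolar partner genes tested 1 was called higher, Pacsin1 (1.02, adjusted p = 0.0333), at 1.53 ± 0.247 FPKM against 0.254 ± 0.178, and Popdc3 differed by 0.38 (adjusted p = 0.179). Of 15 dystrophin complex genes and 7 T-tubule genes limma called 0, with Bin1 at 0.47 and Mtm1 at -0.33 (adjusted p = 0.058 and 0.363). Of all 13625 rat genes tested, 247 were called higher and 43 lower (2.13% in all). Beside that share, the counts of these lists show nothing particular to them.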

How the data were processed

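RNA-seq of 8 mouse and 6 rat libraries and ATAC-seq peak lists of 8 mouse libraries were used, and 6 HiChIP libraries were not used here. Per the labels and the file headers, the authors aligned RNA-seq reads with HISAT2 (2.1.0) to mm10 or rn6 and estimated FPKM, TPM and read coverage per transcript with StringTie (1.3.5 in the labels, an earlier version in the headers of the rat files). For ATAC-seq the sources name cutadapt, Bowtie2, Picard and MACS2, and the deposited peak lists give, for each library on its own, a score, a fold enrichment (a ratio) and p and q values as −log10. Counts were not used here, so transcript FPKM were summed per gene and tested as log2(FPKM + 1) with limma (3.58.1, R 4.3.3, trended prior) over all genes with at least 1 FPKM in at least 2 mouse or 3 rat libraries, with all libraries of a species in a single fit and Benjamini-Hochberg adjustment over all genes tested. A call required a log2 change above 1 in size together with an adjusted p below 0.05. The log scale understates changes of low genes.

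Alignments covered between 4.40 and 5.63 Gb per mouse library and between 4.23 and 5.77 Gb per rat library, and no interval of counting error can be given for FPKM. Groups follow the sample titles. Rat libraries of the same replicate number deviated together (r = 0.224, 0.194 and 0.346), and the numbers were taken to pair the samples. TSA replicate 1 with DMSO replicate 2 had r = 0.167, and TSA replicate 2 with DMSO replicate 1 had 0.0904. Numbers 1 and 2 were thus poorly told apart, and replicate 3 stood out. The pairing entered the pair counts and the block fit, while the other limma fits and the exact permutation test left it out. The scripts were tested on simulated data. The 10 genes and all lists were chosen with earlier results of these data known. The text gives all 10 genes, the 5 genes with the highest Pearson r of log2(FPKM + 1) with each of Trim72, Cav1 and Cav3 among genes with a range of at least 1, and from each related list the 4 largest changes at P7 against E18.5 and the 2 largest with TSA, whether called or not, except that some of these are not reported here. Alternatives were another pseudocount, TPM, size factors, limma-voom, other filters, each library left out, and other peak limits.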

Additional observations from a re-analysis of the deposited data

How the results depend on the processing

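Of 149 counts of genes called or with a peak under the alternatives, 133 stayed within 1.5 times the reported count, and of 929 values of single genes 887 kept their direction and side of the threshold, 20 lost and 9 gained the call and 13 changed sign. With median-of-ratios size factors the count at P3 against E18.5 was 1 (Dysf at 0.87 and Ehd2 at 0.94). With no expression filter the count at P7 against P3, which includes Trim72, was 0. With 1 library left out, the counts ranged from 1 to 4 at P3 against E18.5, from 2 to 5 at P7 against E18.5 (2 without E18.5 replicate 2), from 0 to 4 at P7 against P3 (0 without either P3 library, 1 without P7 replicate 2) and from 0 to 1 for TSA against DMSO (1 without TSA replicate 3). A group reduced to 1 library is assumed to vary like the others.

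Sign changes were seen for 7 genes, given here with the range over the fits that left out 1 library. At P1 against E18.5, Cav3 was -0.1478 with size factors (range -0.179 to 0.2873) and Cavin1 was 0.03047 with TPM. At P7 against E18.5, Trim72 ranged from -1.244 to 5.302e-05, the latter without P7 replicate 2, Cav1 from -0.3799 to 1.85, and Cavin2 from -0.2129 to 0.04293, with 0.176 from TPM. For TSA, Cavin4 ranged from -0.479 to 0.392, the latter without DMSO replicate 3, and Ehd2 from -0.09722 to 0.2301, with -0.03264 from TPM and -0.0001496 from size factors. The cause was not tested. Size factors and TPM moved the median change of all genes at P7 against E18.5 from 0.14 to -0.01 and 0.40, and the share of calls that were higher from 55.7% to 45.5% and 68.1%. At P3 against E18.5 that share went from 59.4% to 45.7% and 74.4%.

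With only the peaks above the median score of each list, 2 and 4 of the 10 genes had a promoter peak at E18.5 and 5 and 3 at P1. With equal numbers of top peaks there were 5 in P1 replicate 1, 3 in P3 replicate 1, and 5 and 5 at P7. The replicate number as a block (the pairing) left the counts at 2, 3, 4, 0, 2 and 3 for the mouse comparisons and 0 for TSA, and changed no call of the 10 genes. Mouse libraries of the same number correlated between -0.0964 and 0.171 in their deviations, so the numbers were not taken as pairs. Groups of 2 libraries and estimated FPKM limit the precision.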
